A study of Homo sapiens with 12 samples.

Results

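DLD1 is an established human colon adenocarcinoma cell line, grown as an epithelial monolayer, that is known for a truncated APC gene and deficient DNA mismatch repair. The values here describe the polyadenylated RNA of DLD1 cells that had received only DMSO, the solvent used as vehicle, for 1 h. They are the 3 libraries labelled DMSO, out of 12 libraries in 4 groups of 3. The remaining groups received TCDD, kynurenine or CH223191 at 10 µM and were not used here, so nothing below is a treatment effect. The labels give no genotype, passage or clone, and they do not say whether the 3 libraries came from separate cultures, so the spread between them may be technical.

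The study concerned AHR, the aryl hydrocarbon receptor, which is a transcription factor switched on by small molecules. Unliganded AHR is held in the cytoplasm by HSP90 and co-chaperones such as PTGES3. With a ligand it enters the nucleus, pairs with ARNT and binds DNA at sites with a GCGTG core, where it switches on genes such as CYP1A1, CYP1B1 and its own repressors AHRR and TIPARP. In the gut, AHR responds to diet-derived, microbial and tryptophan-derived ligands, kynurenine among them. CDX2 is the transcription factor that sets intestinal identity, LGR5 the receptor that marks crypt stem cells, PROX1 a homeobox factor of colorectal tumours and EREG a ligand of the epidermal growth factor receptor EGFR.

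Levels of a gene are given as CPM, its reads per 1000000 reads on named genes in a library, as mean ± SD over the 3 libraries (n = 3). To set different genes side by side, counts were also divided by exon length and scaled to the same total in each library, as TPM. A gene is called expressed at a mean of at least 1 CPM. The libraries held 26403109, 27579937 and 27570282 reads on named genes, and 12071, 12094 and 12030 symbols reached 1 CPM in them. Of 26485 symbols, 12067 (45.6%) were expressed, 2426 (9.16%) reached 100 CPM and 8235 (31.1%) had 0 reads in all 3 libraries. Among protein-coding symbols 11384 of 19003 (59.9%) were expressed and 3820 (20.1%) had 0 reads. Among long non-coding RNAs 327 of 2519 were expressed. Counts of list members below are to be read beside these shares. For lists of protein-coding genes the protein-coding shares are the closer ones. A gene with 0 reads may still stand at up to 0.0368 CPM, which is 3 reads of the summed 81553328. This limit covers counting error only. Pairs of libraries correlated at 0.997 to 0.998 on the log2 CPM scale across genes. Replicate 1 stood furthest from the others in the 18S ribosomal RNA symbol RNA18S5, at 98.2, 0.616 and 0.508 CPM, against a median coefficient of variation of 3.58% over the 9151 genes of at least 10 CPM.

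The highest mean read counts went to EEF1A1, the translation elongation factor, at 10788 ± 215 CPM, to PERP, a desmosomal protein, at 5099 ± 136, and to HSP90AA1, the cytosolic chaperone, at 5079 ± 184. KRT8, the keratin of simple epithelia, ranked next at 4635 ± 164 CPM, followed by ACTB, GAPDH, HSP90AB1, HSPA8, EEF2 and ACTG1. These 10 genes held 5.08% of the reads, 100 genes held 17.9% and 1000 genes 50.7%, so no small set dominated the libraries. PKM, RPS2, PABPC1, NCL, ENO1, FTH1, TUBA1B, NPM1, FLNA and EIF4G2 completed the top 20.

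All 4 marker genes were expressed. CDX2 (chr13:27960918-27969315, minus strand in hg38) stood at 122, 119.9 and 123 CPM in replicates 1, 2 and 3. LGR5 (chr12:71439798-71586310, plus strand) stood at 93.5, 99.7 and 93.6 CPM, and EREG (chr4:74365145-74388749, plus strand) at 205, 216 and 215. The libraries lay close together for each of the 3 genes, with SDs of 1.65, 3.59 and 5.90 CPM. PROX1 (chr1:213983181-214041510, plus strand) was lower at 9.39, 11.6 and 9.54 CPM, with replicate 2 above the other two. Per length the order was EREG at 169 ± 6.002 TPM, CDX2 at 158 ± 1.33, LGR5 at 83.4 ± 3.82 and PROX1 at 5.21 ± 0.677.

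The stretch of DNA upstream of CDX2 is shown because CDX2 is the lineage factor of the line, and that of LRAT, a retinol-esterifying enzyme that had 0 reads in all 3 libraries, for contrast. Capitals mark CpG dinucleotides, the sites of DNA methylation in human cells. Both are the 250 bases before the start site in the RefSeq promoter table (GRCh38.p14), read 5′ to 3′ on the gene's own strand, at chr13:27969316-27969565, minus strand and chr4:154743750-154743999, plus strand.
CDX2: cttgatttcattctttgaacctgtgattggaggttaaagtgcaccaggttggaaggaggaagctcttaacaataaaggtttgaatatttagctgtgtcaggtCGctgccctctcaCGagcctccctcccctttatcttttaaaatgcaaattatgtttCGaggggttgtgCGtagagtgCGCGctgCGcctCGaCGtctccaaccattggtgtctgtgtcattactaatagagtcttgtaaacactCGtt
LRAT: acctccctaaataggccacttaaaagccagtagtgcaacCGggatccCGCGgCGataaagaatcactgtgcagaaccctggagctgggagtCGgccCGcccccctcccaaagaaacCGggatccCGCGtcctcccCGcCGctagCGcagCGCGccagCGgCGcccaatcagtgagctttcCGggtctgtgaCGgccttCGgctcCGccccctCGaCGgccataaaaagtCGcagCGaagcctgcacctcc
The CDX2 stretch holds 10 CpG and the LRAT stretch holds 24, so the silent gene has the denser one of the pair.

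Across genes the reverse order held. In 16199 genes matched to a RefSeq window of 300 bases, from 250 before to 50 after the start, the share expressed was 13.1% of 2543 genes with 0 to 3 CpG, 24.8% of 2315 with 4 to 9, 57.2% of 2643 with 10 to 19 and 77.4% of 8698 with 20 or more. The share with 0 reads fell along the same classes, from 56.2% to 39.7%, 20.4% and 9.26%. Expressed genes had a median of 27 CpG and genes with 0 reads a median of 5. These are descriptions across genes, which are not replicates, and 805 genes with 20 or more CpG had 0 reads. No value here measures methylation.

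Epithelial genes were expressed throughout, and mesenchymal genes mostly were not. All 20 genes of the epithelial adhesion and keratin list were expressed, and 13 reached 100 CPM, beside 45.6% and 9.16% of all symbols. KRT8 and KRT18, the keratin pair of simple epithelia, stood at 3066 and 2972 TPM, EPCAM, a surface adhesion molecule, at 2349.7, KRT19 at 1072, ST14, a membrane serine protease, at 989 and CDH1, which is E-cadherin, at 614. In CPM, with no length, KRT8 and KRT18 lay further apart, at 4635 and 2003. With the longest transcript as the length KRT8 stood at 5064 TPM and KRT18 at 3000. The tight-junction gene CLDN7 stood at 361 TPM and JUP, a desmosomal plakoglobin, at 351. The lowest per length was the splicing factor ESRP1 at 7.89 TPM, while its paralog ESRP2 stood at 102.

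Of 15 mesenchymal genes, 5 (33.3%) were expressed, beside 45.6% of all symbols. A further 8 had reads but stood under 1 CPM, and only 2 had 0 reads, beside 31.1% of all symbols and 20.1% of protein-coding symbols. ITGA5, a fibronectin receptor subunit, led at 30.3 ± 0.759 CPM, followed in CPM by FN1, which is fibronectin, at 8.55 ± 0.758, SNAI1 at 2.64 ± 0.277, LOX at 2.27 ± 0.346 and VIM, which is vimentin, at 1.45 ± 0.128. VIM thus had 42, 37 and 39 reads. CDH2, the neural cadherin, stood at 0.897 ± 0.181 CPM. ZEB1, a repressor of CDH1, had 12, 6 and 5 reads, SNAI2 had 1, 2 and 1, and TWIST1 and TWIST2 had none.

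Marker lists of other cell types were mostly low. None of 8 fibroblast, 8 muscle or 8 erythroid genes was expressed, and COL3A1, DCN and PDGFRA had 0 reads. Summed fibroblast markers came to 0.833, 1.05 and 1.20 CPM in the 3 libraries. Of 10 immune genes 4 (40%) were expressed, beside 45.6% of all symbols and 59.9% of protein-coding symbols. These were LYZ, CD68 at 3.34 ± 0.178 CPM, CD14 at 1.36 ± 0.168 and ITGAM at 1.02 ± 0.172, while CD3E, CD3D and MS4A1 had 0 reads. ESAM and CLDN5 were the 2 of 8 endothelial genes that were expressed, and the defining CDH5, KDR, TEK and EMCN had 0 reads. MAP2, a microtubule protein listed as neuronal, stood at 21.3 ± 2.19 CPM with the other 7 of its list under 1 CPM, and SERPINA1, listed as hepatocyte, at 7.49 ± 0.253 with ALB at 0, 0 and 2 reads. In bulk RNA, few cells with much of a transcript and many cells with little cannot be told apart.

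Intestinal transcription factors were largely present. Of 28 such genes 25 were expressed, 8 of them at 100 CPM or more. The share expressed was 45.6% of all symbols and 59.9% of protein-coding symbols. SOX9, a crypt progenitor factor, led at 468 TPM, followed by ASCL2, the stem cell factor driven by Wnt, at 391, ID1 at 387, KLF5 at 311, FOXA1 at 239 and EHF at 159. GATA6, a factor of gut endoderm, stood at 86.4 ± 2.53 CPM and 104 TPM. HNF4A, a factor of mature enterocytes, was lower at 25.9 ± 1.59 CPM and 11.6 TPM.

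Some factors of the intestine and its neighbours were at or near 0. CDX1, the partner of CDX2 in the colon (chr5:150166778-150184558, plus strand), had 0, 1 and 3 reads against 3231, 3306 and 3391 for CDX2. GATA4, a factor of the proximal intestine, had 0 reads, and NR5A2, a nuclear receptor of crypts and pancreas, had 6, 6 and 6. Other relatives passed 1 CPM, namely FOXA3 at 3.66 ± 0.403 CPM, FOXA2 at 2.99 ± 0.528, HNF4G at 1.42 ± 0.236 and GATA2 at 13.9 ± 0.442. Among 20 transcription factors of other organs 5 were expressed, beside 45.6% of all symbols, and 7 had 0 reads. The 4 of these 5 given here do not include the highest: PDX1, known from pancreas and duodenum, stood at 10.1 ± 0.985 CPM, PAX9 at 5.49 ± 0.437, PAX8 at 2.51 ± 0.1896 and PAX6 at 1.11 ± 0.516. SOX2, PTF1A, FOXE1, NKX2-2, OLIG2, POU4F1 and TFAP2B had none, and the squamous factor TP63 had 1, 1 and 2 reads.

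Crypt stem cell and Wnt genes were high. Of 16 stem cell genes 13 were expressed, beside 45.6% of all symbols and 59.9% of protein-coding symbols, and none stood at 0 reads. ASCL2 stood at 391 TPM, the adhesion receptor CD44 at 102, TNFRSF19 at 99.8, LGR5 at 83.4, CDCA7 at 45.9, EPHB2, which positions cells along the crypt, at 45.6, EPHB3 at 33.7 and PROM1, which is CD133, at 31.3. The exceptions were OLFM4, a stem cell gene of human crypts with 1, 0 and 0 reads, SMOC2 with 1, 2 and 1 and MSI1 with 3, 2 and 2. LRIG1 was barely expressed at 1.18 ± 0.113 CPM.

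Of 18 feedback and target genes of the Wnt pathway, 15 were expressed, beside 45.6% of all symbols and 59.9% of protein-coding symbols. CCND1, the cell cycle gene cyclin D1, stood at 895 TPM and AXIN2, a scaffold of the β-catenin destruction complex, at 439.5. MYC stood at 122 TPM, RNF43, a ubiquitin ligase that removes Frizzled receptors, at 95.4, its partner ZNRF3 at 62.6 and BAMBI at 92.9. NOTUM, a secreted Wnt deacylase, was the lowest of the expressed in CPM at 4.3004 ± 0.422. Of the secreted antagonists on the list, WIF1 had reads of 0, 1 and 1, DKK1 of 1, 0 and 0 and DKK4 of 0, 0 and 1 in the 3 libraries. On a wider list of 9 secreted antagonists none was expressed: DKK3 stood at 0.479 ± 0.164 CPM, SFRP4 at 0.2702 ± 0.0461, and SFRP1, SFRP2 and DKK2 had 0 reads. The 3 genes of the list that were not expressed thus all code for secreted antagonists.

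Genes of fetal and regenerating epithelium were also present, with 14 of 18 expressed, beside 45.6% of all symbols and 59.9% of protein-coding symbols. CLU, a marker of revival stem cells, stood at 366 ± 5.73 CPM, the transcriptional coactivator YAP1 at 240.3 ± 5.66, and its target genes CYR61 and CTGF at 142 ± 3.63 and 55.5 ± 1.31. ANXA1, a phospholipid-binding protein, stood at 102 ± 1.66 CPM. LY6D and SPRR1A had 0 reads. Stem cell genes such as LGR5 and fetal genes such as CLU were thus found in the same libraries, although bulk counts do not show whether in the same cells.

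Most genes of differentiated gut cells were not expressed. Of 35 colonocyte and enterocyte genes 9 (25.7%) were expressed, beside 45.6% of all symbols and 59.9% of protein-coding symbols. Of the same 35 genes 11 had 0 reads, beside 31.1% of all symbols and 20.1% of protein-coding symbols. TSPAN8, a tetraspanin, at 108 ± 1.48 CPM and CDH17, the liver-intestine cadherin, at 99.9 ± 3.53 were far above the rest. CA2, a carbonic anhydrase, stood at 12.9 ± 1.94 CPM, DPP4 at 5.64 ± 0.185, KRT20 at 2.72 ± 0.203 and VIL1, the brush border protein villin, at 2.32 ± 0.287. FABP1, a fatty acid carrier, CA1, CA4, the chloride exchanger SLC26A3, ALPI, SI, CEACAM7 and PHGR1 had 0 reads, and CEACAM5, which encodes the carcinoembryonic antigen, had 2, 4 and 1.

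Among 24 goblet cell and mucin genes 8 (33.3%) were expressed and 4 had 0 reads, beside 45.6% and 31.1% of all symbols. For protein-coding symbols the shares were 59.9% and 20.1%. With a threshold of 1 TPM in place of 1 CPM the count of 8 became 11. AGR2, a chaperone of mucin folding, stood at 281, 316 and 321 CPM, lowest in replicate 1. MUC5AC, the gastric gel mucin, stood at 69.99, 56.6 and 55.1 CPM, highest in replicate 1, while MUC2, the gel mucin of the colon, had 12, 8 and 7 reads and ATOH1, the factor that commits cells to the secretory fate, 0, 0 and 2. The trefoil peptides TFF1 and TFF3 stood at 73.4 and 51.8 TPM and the membrane mucins MUC13 and MUC20 at 24.2 and 22.6.

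Other lineages of the gut left little trace. Of 18 enteroendocrine genes only the secretory chaperone SCG5 was expressed, at 21.4 ± 1.77 CPM, and 11, among them CHGA, CHGB, NEUROD1, NEUROG3, GCG, PYY and SST, had 0 reads. Without replicate 1 the count of enteroendocrine genes became 2. Of 8 Paneth cell genes LYZ and PLA2G2A were expressed and DEFA5, DEFA6, REG3A and ITLN2 had 0 reads. LYZ, the antibacterial enzyme lysozyme, varied most, at 6.55, 3.73 and 10.3 CPM. PLA2G2A stood at 1.14 ± 0.421 CPM, and without replicate 2 the count of Paneth genes became 1. Of 10 tuft cell genes only AVIL was expressed, at 1.98 ± 0.2605 CPM, with POU2F3, the factor that defines these cells, at 4, 4 and 4 reads and DCLK1 at 0.

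**Figure D1:**
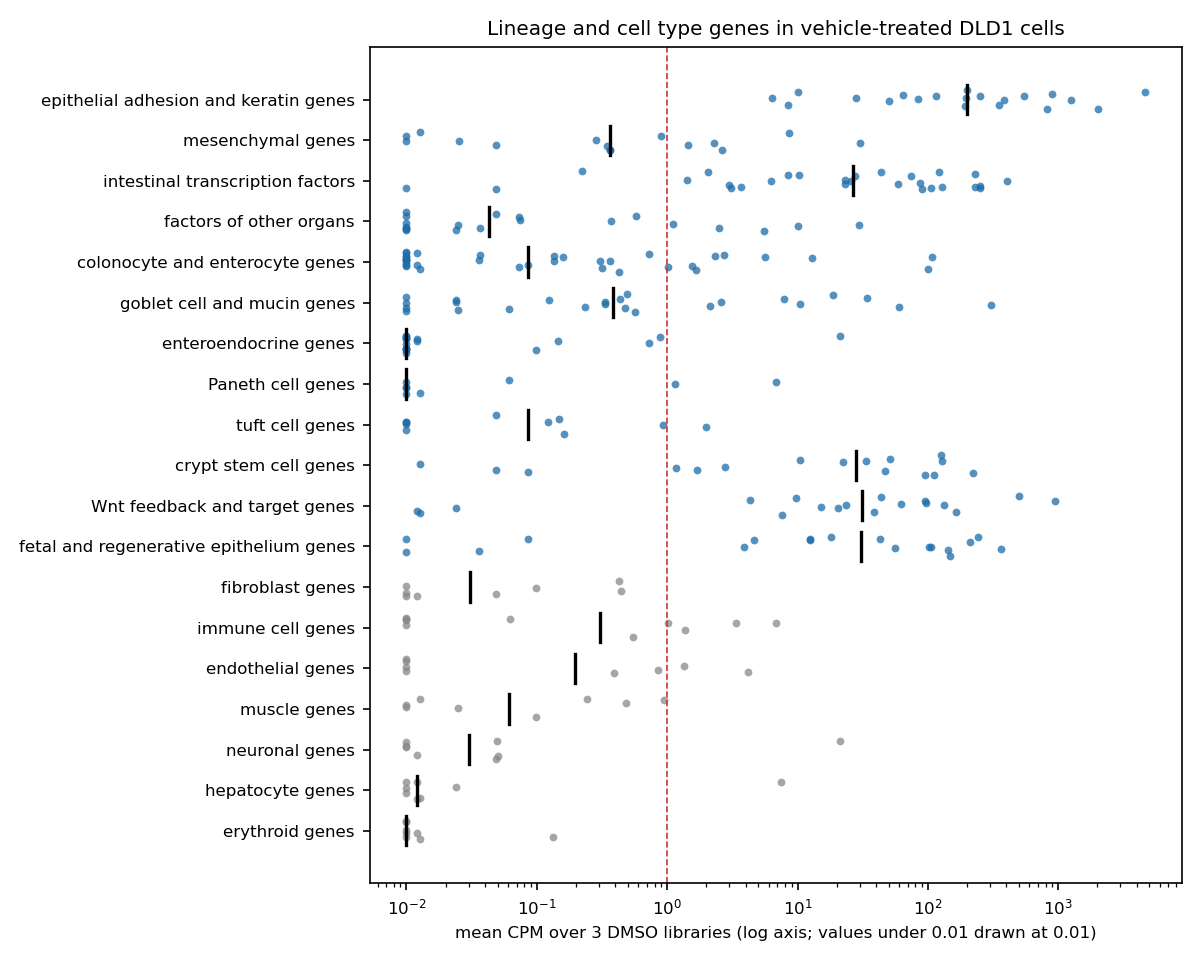
Mean CPM over the 3 DMSO libraries (log x axis, values under 0.01 drawn at 0.01) of every gene in 19 lineage and cell type lists, 1 point a gene, with the list's median as a black bar and 1 CPM as a dashed line. The epithelial list lies wholly to the right of the line, the stem cell, Wnt target and fetal lists mostly so, and the lists of other cell types, in grey, mostly to its left.

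All parts of the AHR complex were expressed. AHR itself (chr7:16916359-17346152, plus strand) stood at 187, 203 and 192 CPM, replicate 2 being the highest, and at 109.7 ± 5.74 TPM. Its chaperones were far more abundant: HSP90AB1 stood at 6656 ± 143 TPM, HSP90AA1 at 4538 ± 184 and the co-chaperone PTGES3 at 965 ± 17.1. In CPM, with no length, HSP90AA1 was above HSP90AB1, at 5079 against 4356. SRC, a kinase released from the complex, stood at 20.8 ± 0.492 TPM.

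The dimer partner came from 2 paralogs at like levels. ARNT (chr1:150809713-150876708, minus strand) stood at 21.7, 24.3 and 23.6 TPM and ARNT2 (chr15:80404350-80597933, plus strand) at 21.8, 21.9 and 21.9. The ranges overlapped, so per length neither was above the other, while in CPM, with no length, ARNT2 was higher in each library at 37.4, 36.8 and 37.3 against 31.1, 34.2 and 33.4. AHR stood above either partner in each library on both scales. With the longest transcript as the length, AHR stood at 87.2 TPM, ARNT at 21.8 and ARNT2 at 17.4, so the order of AHR and its partners was kept.

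Of the repressors, TIPARP, a mono-ADP-ribosyltransferase that is itself an AHR target, stood at 43.9, 44.7 and 42.8 CPM, and AHRR, a decoy that competes for ARNT, at 6.02, 6.67 and 5.95. The 3 libraries differed little for either gene. Per length TIPARP stood at 41.5 ± 1.13 TPM and AHRR at 2.99 ± 0.215, with no overlap. DDB1, CUL4B and TBL3, parts of a ubiquitin ligase that can contain AHR, stood at 169, 16.003 and 53.9 TPM. All 12 coactivators and corepressors on the list were expressed, led per length by the chromatin remodeller SMARCA4 at 88.5 TPM, the NF-κB subunit RELA at 73.8, MED1 at 69.001 and RELB at 55.4.

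Among 20 classical AHR targets 11 (55%) were expressed and 6 had 0 reads, beside 45.6% and 31.1% of all symbols. Among protein-coding symbols the shares were 59.9% and 20.1%. CYP1A1, the most inducible of the targets and an enzyme that oxidises polycyclic hydrocarbons, was close to the threshold at 3.03, 3.2995 and 3.26 CPM, which is 80, 91 and 90 reads. CYP1B1, its relative, stood at 126, 124 and 125 CPM. CYP1A2, which is mainly known from liver, had 6, 15 and 11 reads. CYP1B1 held 95.1% ± 0.431 of the summed TPM of the 3 enzymes and did not overlap CYP1A1, at 94.6 ± 0.267 against 4.33 ± 0.232 TPM. CYP1A1 and CYP1A2 are neighbouring, similar genes that may share reads, and CYP1B1 has an antisense partner whose reads may be mixed in, since the strand setting is not given.

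Of the other targets NQO1, a quinone reductase that NRF2 also drives, stood at 286 TPM, ALDH3A1, an aldehyde dehydrogenase, at 93.5, the cytochrome CYP2S1 at 64.3 and NFE2L2, which encodes NRF2, at 55.9. ALDH3A1 stood at 83.9, 77.6 and 77.4 CPM, highest in replicate 1. SCIN, an actin-severing protein, stood at 13.8 ± 0.90003 CPM, the efflux pump ABCG2 at 3.18 ± 0.178 and the glucuronosyltransferase UGT1A6 at 1.93 ± 0.181. CD36, a fatty acid carrier, had 4, 8 and 11 reads, and FOXP3, a factor of regulatory T cells, had 4, 6 and 7. UGT1A1, GSTA1, GSTA2, LRAT, IL22 and IL17A had 0 reads, the interleukins being known from lymphocytes. UGT1A1 and UGT1A6 share exons and GSTA1 and GSTA2 are close copies, so these counts are uncertain.

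The DNA upstream of CYP1A1 and TIPARP is shown because these targets differ in vehicle level and both carry the AHR core. Capitals mark GCGTG or, on the opposite strand, its reverse complement CACGC. The CYP1A1 stretch is the 242 bases at chr15:74725537-74725778, minus strand, and the TIPARP stretch the 250 bases at chr3:156674340-156674589, plus strand, both from the RefSeq promoter table (GRCh38.p14).
CYP1A1: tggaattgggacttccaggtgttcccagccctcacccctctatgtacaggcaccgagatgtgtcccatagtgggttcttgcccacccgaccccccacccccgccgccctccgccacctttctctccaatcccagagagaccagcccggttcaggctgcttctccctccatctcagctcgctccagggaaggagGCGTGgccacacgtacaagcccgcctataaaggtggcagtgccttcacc
TIPARP: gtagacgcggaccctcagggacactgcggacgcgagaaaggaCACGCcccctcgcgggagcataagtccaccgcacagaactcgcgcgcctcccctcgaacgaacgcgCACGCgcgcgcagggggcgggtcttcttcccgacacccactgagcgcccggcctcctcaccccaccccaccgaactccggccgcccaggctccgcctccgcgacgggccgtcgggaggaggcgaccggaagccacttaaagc
CYP1A1 holds 1 core in this stretch and TIPARP holds 2. Among the 17 classical targets with a RefSeq window of 300 bases, 9 held the core on either strand, beside 36.3% of all 27305 windows. A match of 5 letters is a description and not a binding site, and the enhancers of these genes lie partly outside such windows.

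**Figure D2:**
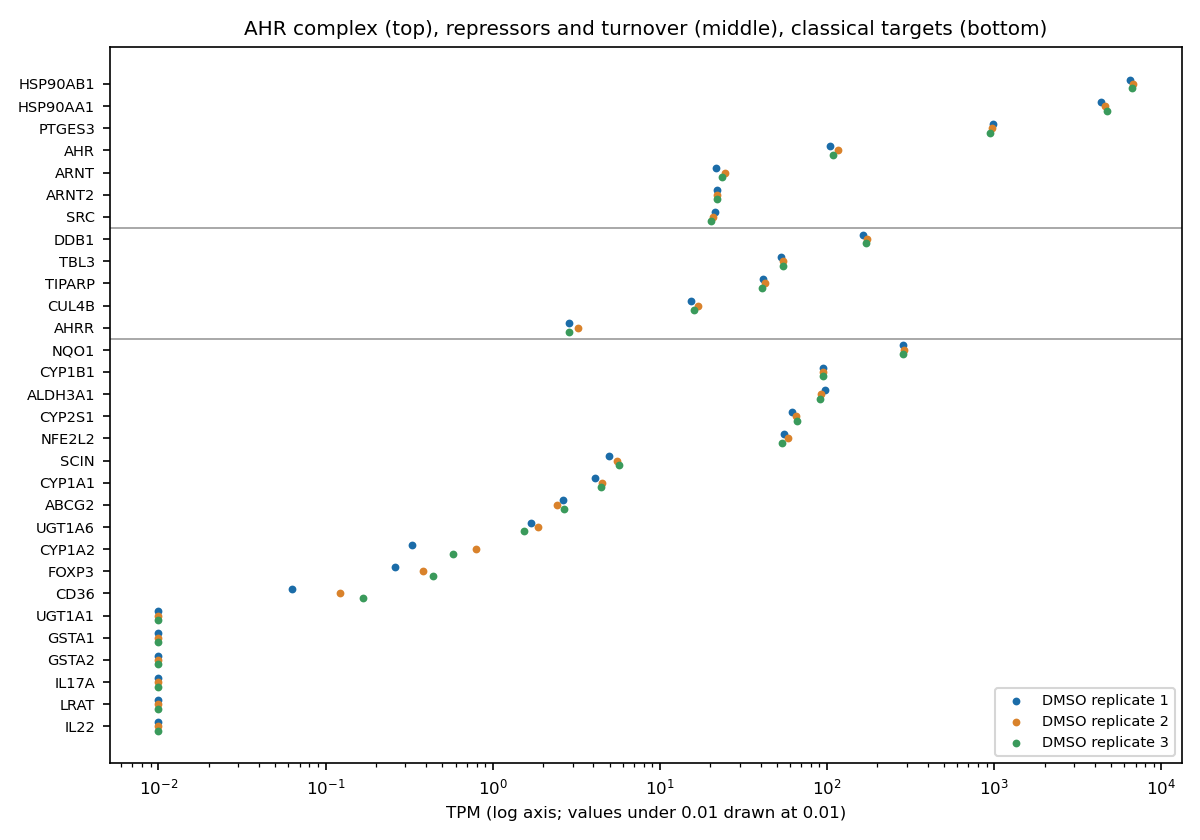
TPM in each of the 3 DMSO libraries (log x axis, values under 0.01 drawn at 0.01) of the AHR complex, its repressors and turnover factors, and its classical targets, 1 colour a replicate. AHR has a mean of 109.7 TPM, ARNT at 23.2 and ARNT2 at 21.9 overlap, and the targets run from NQO1 at 286 down to the 6 genes with 0 reads.

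The machinery for kynurenine, a tryptophan metabolite that binds AHR, was unequal. Of 10 transporters 9 were expressed, beside 45.6% of all symbols and 59.9% of protein-coding symbols. SLC7A5, the carrier LAT1 that exchanges large neutral amino acids and also takes up kynurenine, stood at 1352, 1287 and 1335 CPM, and its heavy chain SLC3A2 at 759, 685 and 728. Both were lowest in replicate 2. SLC1A5, a glutamine carrier, stood at 805 TPM and SLC7A8, the carrier LAT2, at 344, below the 1266 TPM of SLC7A5.

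Of 14 enzymes 6 (42.9%) were expressed, beside 45.6% of all symbols and 59.9% of protein-coding symbols. GOT2, a mitochondrial aminotransferase, stood at 465 TPM and QPRT, which makes the nicotinate nucleotide, at 80.3. The aminotransferases CCBL2 and AADAT and the formamidase AFMID, which makes kynurenine from formylkynurenine, stood at 97.1, 14.8 and 12.7 TPM. The enzymes that open the tryptophan ring were not expressed: IDO1 had 1, 0 and 0 reads, IDO2 had 0 and TDO2 had 9, 17 and 9. KYNU, KMO and HAAO, further along the pathway, were also under 1 CPM, at 0.902 ± 0.324, 0.638 ± 0.0524 and 0.0846 ± 0.0755. IL4I1, an amino acid oxidase that gives other AHR ligands, stood at 0.699 ± 0.0565 CPM.

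Relatives of AHR with the same protein fold were expressed in 11 of 16 cases (68.75%), beside 45.6% of all symbols and 59.9% of protein-coding symbols. HIF1A, an oxygen-regulated transcription factor that also pairs with ARNT, stood at 107 ± 7.13 TPM, near the 109.7 ± 5.74 of AHR, with overlapping ranges. In CPM, with no length, HIF1A was lower than AHR, at a mean of 121 against 194. EPAS1, also called HIF2A, stood at 17.3 ± 1.71 TPM. The clock factors ARNTL2, CLOCK and ARNTL stood at 49.5, 33.1 and 14.8 TPM, and SIM2, known from development, at 9.19. HIF3A, NPAS3, NPAS4, SIM1 and PASD1 had 0 reads.

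Nuclear receptors are transcription factors for hormones, lipids and bile acids. Of 48 on the list, 27 (56.25%) were expressed and 7 had 0 reads, beside 45.6% and 31.1% of all symbols. Among protein-coding symbols the shares were 59.9% and 20.1%. The receptor counts further below are to be read beside the same shares. The highest per length were orphan receptors: NR2F2, also called COUP-TFII, stood at 241, 243 and 244 TPM, NR2F6 at 183, 168 and 177 and ESRRA, a regulator of mitochondrial genes, at 90.7, 84.9 and 83.2. Each lay above the next with no overlap. NR1D2, a clock repressor, stood at 67.7 TPM, the retinoic acid receptor RARG at 61.6 and the vitamin D receptor VDR at 59.7, the last pair overlapping. RXRB, NR1D1, PPARD and NR1H2 followed at 40.99, 36.4, 34.4 and 31.8 TPM, their ranges overlapping from one to the next.

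Receptors of the steroid hormones were low. NR3C1, the glucocorticoid receptor that most tissues carry (chr5:143277931-143435512, minus strand), had 1, 1 and 0 reads in the 3 libraries, or 0.0247 ± 0.0214 CPM. PGR, the progesterone receptor, had 0, and ESR1, an oestrogen receptor, had 4, 3 and 0. NR3C2, the mineralocorticoid receptor, passed the threshold for an expressed gene at 1.32 ± 0.299 CPM, which is 0.9104 ± 0.213 TPM, and ESR2 did not, at 0.515 ± 0.0736 CPM. The bile acid receptor NR1H4 and the xenobiotic receptor NR1I2 had 0 reads. RARB, a retinoic acid receptor, had 1, 2 and 1 reads beside the 61.6 TPM of RARG.

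Of 58 receptor tyrosine kinases 31 (53.4%) were expressed and 12 had 0 reads, beside 45.6% and 31.1% of all symbols. Among protein-coding symbols the shares were 59.9% and 20.1%. MET, the receptor of hepatocyte growth factor, led at 240.4, 259 and 261 TPM, lowest in replicate 1. EPHA2, an ephrin receptor, stood at 210.2, 213 and 205 and PTK7, a pseudokinase of Wnt signalling, at 206, 203 and 207, with overlapping ranges. DDR1, a collagen receptor, ERBB2, EPHB4 and MST1R followed at 137, 100.3, 89.8 and 72.3 TPM. KIT, best known from mast and interstitial cells, stood at 65.1 ± 3.27 TPM.

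The 4 EGF receptors differed per length. ERBB2 stood at 100.3 ± 1.63 TPM, ERBB3 at 40.7 ± 2.99, EGFR at 22.6 ± 1.07, and ERBB4 had 0 reads. Their ligands EREG, TGFA and AREG stood at 169, 147 and 119 TPM, each above the next with no overlap, and HBEGF and BTC at 8.73 and 4.77. EGF itself stood at 0.212 TPM, NRG1 had 1, 0 and 0 reads and NRG3 none. Per length the ligands EREG, TGFA and AREG thus each stood above EGFR in every library. In CPM, with no length, AREG was lower than EGFR, at a mean of 42.8 against 78.9. PDGFRA, KDR, FLT3, FLT4, NTRK3, TEK, EPHA5, EPHA6, EPHA7, EPHA8 and RET completed the 12 kinases without a read.

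**Figure D3:**
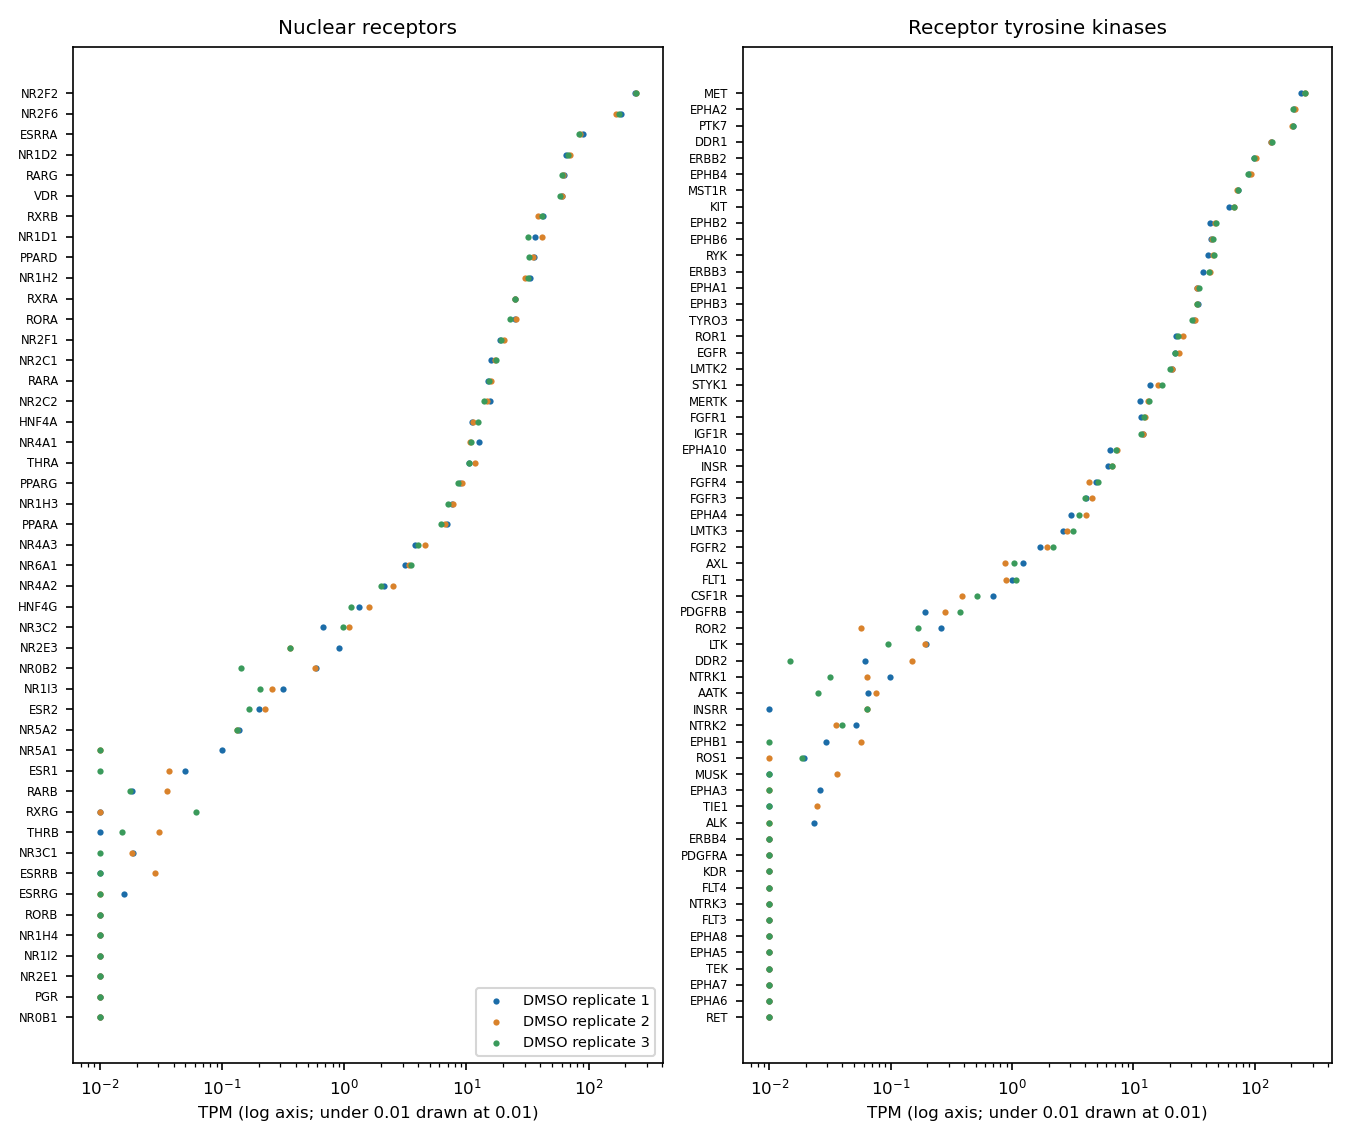
TPM in each DMSO library (log x axes, values under 0.01 drawn at 0.01) of 46 nuclear receptors and 58 receptor tyrosine kinases in order of their mean, 1 colour a replicate. The libraries nearly coincide at the top of either panel, from NR2F2 and MET down, and scatter below about 1 TPM, where a gene has few reads.

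Wnt receptors were expressed in 12 of 15 cases and Wnt ligands in 5 of 19. The co-receptors LRP5 and LRP6 stood at 153 and 48.2 TPM. Among Frizzled receptors FZD6 led at 62.6 ± 2.33 TPM, then FZD7 at 44.8 ± 0.918, FZD2 at 21.7 ± 1.27 and FZD5 at 16.7 ± 1.06, and FZD10 had 0 reads. LGR5 stood at 83.4 ± 3.82 TPM, above its paralogs LGR6 at 10.3 ± 0.447 and LGR4 at 9.42 ± 0.818. WNT7B, WNT10A and WNT5B were the highest ligands at 17.6, 12.1 and 11.2 TPM, and WNT1, WNT2, WNT3A, WNT8A and WNT9B had 0 reads.

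In the Notch pathway, which keeps crypt cells from the secretory fate, 7 of 9 genes were expressed. NOTCH2 stood at 50.3 ± 1.28 TPM and NOTCH1 at 10.3 ± 0.174, and the ligands JAG1 and JAG2 at 133 ± 3.901 and 70.01 ± 1.98, above DLL4 at 4.95 ± 0.362 and DLL1 at 3.05 ± 0.591. Of 13 receptors for TGF-β and bone morphogenetic proteins 11 were expressed, led by TGFBR2, which is often mutated in mismatch repair-deficient tumours, at 102 ± 5.004 TPM and TGFBR1 at 47.3 ± 2.59. ACVR2A stood at 30.9 ± 0.704 TPM and BMPR1A at 31.5 ± 0.568. ACVRL1, an endothelial receptor, had 0, 1 and 1 reads.

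Cytokine receptor chains were expressed in 18 of 30 cases (60%), beside 45.6% of all symbols and 59.9% of protein-coding symbols. IFNGR1, which binds interferon-γ, led at 338, 373 and 354 TPM, followed by IL6ST, the shared chain gp130, at 114 ± 5.63 and IL13RA1 at 81.1 ± 1.36. The chains that pair with IL6ST were uneven: IL6R stood at 5.997 ± 0.797 TPM, while OSMR had 0, 1 and 0 reads and LIFR had 2, 0 and 0. IL22RA1 and IL10RB, the chains of the interleukin-22 receptor, stood at 19.2 ± 1.58 and 15.5 ± 0.846 TPM. IL2RA, IL2RB and GHR had 0 reads.

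Of 16 death and TNF receptors 13 were expressed, with TNFRSF12A, the receptor of TWEAK, highest at 413 ± 11.3 TPM, then TNFRSF21 at 174 ± 3.97, the TRAIL receptor TNFRSF10B at 117 ± 3.58, LTBR at 114 ± 5.22 and TNFRSF1A at 95.98 ± 1.26. FAS, the classical death receptor, was lower at 2.25 ± 0.178 TPM, and CD40 had 0, 4 and 1 reads. The place of FAS depended on the length used. In CPM it stood at 14.5, above TNFRSF9 at 8.54, while per length TNFRSF9 was higher at 6.13 TPM. Of 21 Toll-like receptors and innate sensors 12 were expressed. The adaptors MYD88 and MAVS stood at 64.9 and 48.6 TPM and TLR2 at 23.5. TLR4 stood at 0.0504 ± 0.0121 TPM, and TLR10 and AIM2 had 0 reads.

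Integrins were expressed in 15 of 26 cases (57.7%), beside 45.6% of all symbols and 59.9% of protein-coding symbols. ITGA6 and ITGB4, the pair of the hemidesmosome, stood at 426 ± 13.2 and 192 ± 5.08 TPM, ITGB5 at 189 ± 4.47, ITGB1 at 144 ± 5.85, ITGA3 at 117 ± 2.27, ITGAV at 73.8 ± 2.83 and ITGA2 at 57.2 ± 1.28. ITGA8 had 0 reads and ITGA4, a leukocyte subunit, 4, 2 and 1. Of 22 receptors for prostaglandins, adenosine and adrenaline 6 were expressed, with ADORA2B highest at 86.6 ± 5.36 TPM and the prostaglandin E receptors PTGER2 and PTGER4 at 11.8 ± 1.66 and 5.63 ± 0.537. PTGER3, PTGFR, PTGDR, ADRA1A, ADRA1B and ADRB3 had 0 reads. Of 25 metabolite and protease receptors of the gut 10 (40%) were expressed, beside 45.6% of all symbols and 59.9% of protein-coding symbols. F2RL1, the trypsin-activated receptor PAR2, led at 284 ± 5.35 TPM, followed by GPRC5A at 72.7 ± 1.42 and LPAR2 at 46.7 ± 1.84. The short-chain fatty acid receptor FFAR3 and the lactate receptor HCAR1 had 0 reads.

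Paralogs are genes descended from 1 ancestor that often code for interchangeable proteins, and tissues differ in which they use. In 58 of 59 families the leading member was expressed, the exception being LIN28, whose LIN28A had 0, 0 and 1 reads and LIN28B none. Those 58 families had 250 members, of which 167 were expressed and 26 had 0 reads, beside 45.6% and 31.1% of all symbols. Among protein-coding symbols the shares were 59.9% and 20.1%. The leader held over 90% of the family's summed TPM in 18 of the 58 families, over 50% in 49 and less in 9, and it lay above the second member with no overlap between libraries in 56. Families were put together by hand and differ in size, which bears on these shares.

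Some glycolytic families had a leader far above the rest and others did not. PKM, ALDOA and ENO1 stood at 1711, 1408 and 2168 TPM and held over 99% of their families, with PKLR at 0, 1 and 0 reads and ENO3 at 1.14 TPM. SLC2A1, the glucose carrier GLUT1, held 97.7% ± 0.0592 of its family at 469.7 TPM. SLC2A2 had 0 reads, and SLC2A3 at 10.5 and SLC2A14 with 0, 1 and 0 reads are near-identical copies whose counts are uncertain. LDHB stood at 1604, 1612 and 1621 TPM and LDHA at 896, 887 and 894, although in CPM LDHA was higher, at 1181 ± 16.7 against 1056 ± 8.76. The phosphofructokinases PFKL, PFKP and PFKM stood at 105.3 ± 0.895, 94.6 ± 1.61 and 50.04 ± 1.35 TPM, and with the longest transcript as the length PFKP came first. FBP1, an enzyme of the opposite pathway, stood at 25.2 ± 2.96 TPM. HK2 and HK1 stood at 104.7 ± 4.58 and 92.4 ± 1.22, an order that turned when the longest transcript was taken as the length, to 75.7 and 109.

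Calcium pumps and channels were one-sided. ATP2A2 held 98.7% ± 0.0843 of the SERCA pumps, which fill the endoplasmic reticulum with calcium, at 278 ± 3.78 TPM. Among inositol trisphosphate receptors ITPR3, common in epithelia, stood at 70.5, 78.9 and 75.2 TPM, ITPR2 at 19.2, 22.3 and 21.9 and ITPR1 at 0.538, 0.477 and 0.545. RYR3 was the only ryanodine receptor with a read, at 0.434 ± 0.0615 TPM, RYR1 and RYR2 having none.

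Among cytoskeletal families, ezrin and its relatives lay far apart. Of the proteins that link membrane to actin, EZR, which is ezrin, stood at 1004, 1049 and 1099 TPM, RDX at 84.2, 94.3 and 94.1 and MSN, which is moesin and common in leukocytes and fibroblasts (chrX:65588377-65741931, plus strand), at 0.3897, 0.394 and 0.246. EZR thus held 92.01% ± 0.265 of the family. MYH9 held 83.7% ± 0.559 of the non-muscle myosins at 309 TPM, with MYH14 at 48.9 and MYH10 at 11.2. Of plastins, PLS3 stood at 197 TPM, PLS1, the intestinal form, at 93.6 and LCP1, the leukocyte form, at 3.28. ACTB and ACTG1, at 4726 and 3828 TPM, and the tubulins TUBB4B and TUBB, at 2682 and 2465, are close copies whose counts are uncertain, and ACTC1 and ACTG2 had 0 reads.

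Junction and filament families differed in how far 1 member led. Of 21 claudins CLDN7 held 42.3% ± 0.273, at 361 TPM, followed by CLDN4 at 185, CLDN3 at 101, CLDN2, a leaky cation channel, at 87.3, and CLDN1 at 54.7. CLDN8, CLDN10, CLDN14, CLDN17 and CLDN22 had 0 reads. Among the cadherins CDH1 stood at 614 TPM, CDH17 at 117 and CDH3 at 85.7. Of type II keratins KRT8 held 95.4% ± 0.0669, KRT80 being next at 141 TPM, and KRT1, KRT6A, KRT6B and KRT6C had 0 reads. Of type I keratins KRT18 stood at 2972 and KRT19 at 1072, KRT20 at 6.47, and KRT14, KRT12 and KRT9 had 0 reads.

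Signalling and cell cycle families differed in the same way. CCND1 stood at 906, 911 and 869 TPM, CCND3 at 52.3, 47.4 and 50.5 and CCND2 at 0.107, 0.125 and 0.165. CCND1 held 94.7% ± 0.307 of the D cyclins, and its partner CDK4, at 338 ± 7.65 TPM, stood above CDK6 at 28.5 ± 1.47. CCNE1 and CCNE2 stood at 77.6 ± 2.803 and 45.5 ± 2.504 TPM, an order that turned in CPM, with no length, at 41.96 and 43.93. The kinases ARAF and BRAF stood at 76.2 ± 1.45 and 2.65 ± 0.266 TPM, and nearer to each other in CPM, at 57.04 and 13.6. PIK3CB stood at 36.02 ± 0.608 TPM and PIK3CA at 5.91 ± 0.0119, AKT1 at 91.2 ± 2.16 and AKT2 at 33.1 ± 0.372. HRAS and NRAS, at 158 ± 3.55 and 152 ± 5.66 TPM, overlapped.

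Among survival proteins MCL1 and BCL2L1 stood at 167 ± 1.59 and 139 ± 5.07 TPM, BCL2L2 at 20.8 ± 0.794 and BCL2 at 0.985 ± 0.167. MYC stood at 122 ± 1.98 TPM, MYCL at 11.4 ± 0.694 and MYCN at 1.74 ± 0.114. Of APOBEC3 cytidine deaminases, enzymes that mutate single-stranded DNA, APOBEC3B stood at 163 ± 3.42 TPM, APOBEC3C at 73.7 ± 3.82 and APOBEC3F at 18.1 ± 0.998, and APOBEC3A had 0 reads. The inflammatory enzyme PTGS2 led its pair at only 1.43 ± 0.355 TPM, with PTGS1 at 0.733 ± 0.0755.

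Several chromatin and transcription factor families had a strong leader. DNMT1, which copies DNA methylation, held 90.4% ± 0.478 of its family, with DNMT3A at 9.63 ± 0.629 and DNMT3B at 3.02 ± 0.406 TPM. EZH2 held 84.97% ± 0.497, SMARCA4 84.3% ± 0.339 and TET3 67.2% ± 0.532 of theirs. GATA6 stood at 104 ± 2.62 TPM, GATA2 at 12.9 ± 0.4004 and GATA3 at 0.478 ± 0.0833, and GATA1, GATA4 and GATA5 had 0 reads. FOXA1 held 94.9% ± 0.571 and HNF4A 89.5% ± 1.97. TCF7L2 and LEF1, which carry Wnt signals to DNA, stood at 61.4 ± 2.62 and 53.03 ± 1.87 TPM, and IGF2BP2 at 59.4 ± 1.296 beside IGF2BP1 at 0.209 ± 0.0478.

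**Figure D4:**
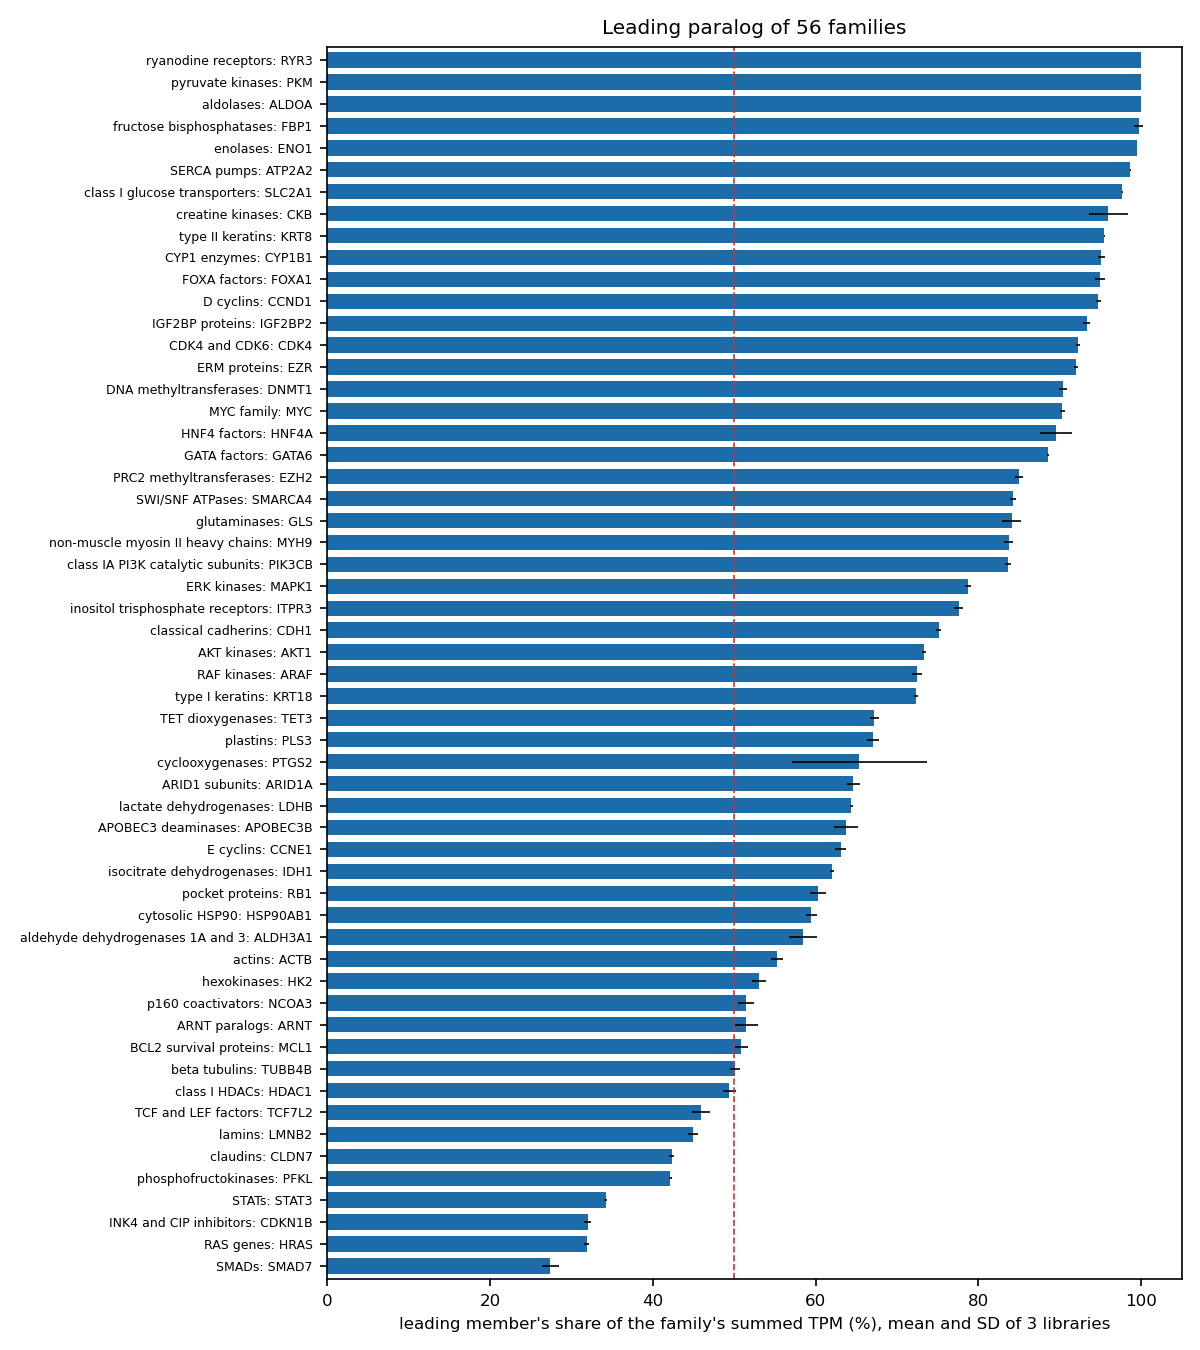
Share of the family's summed TPM held by its leading member, in percent, for 56 of the 58 families whose leader was expressed; bars are means and lines SDs of the 3 libraries, with 50% dashed. Shares run from 27.4% for SMAD7 among the SMADs to over 99% for RYR3, PKM, ALDOA, FBP1 and ENO1.

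HOX genes keep the body position of the tissue a cell came from, low numbers being anterior and high numbers posterior. The HOXA and HOXB clusters held most of the HOX reads. In HOXA 9 of 11 genes were expressed and in HOXB 9 of 10, against 3 of 9 in HOXC and 5 of 9 in HOXD, beside 45.6% of all symbols. Among protein-coding symbols the share was 59.9%. No gene of HOXC or HOXD reached 10 CPM. Summed over a cluster, HOXB came to 413, 412 and 390.1 CPM, HOXA to 186, 198 and 186, HOXD to 14.9, 15.3 and 13.3, and HOXC to 7.01, 6.42 and 6.82, with no overlap between clusters.

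HOXB9 was the highest per length at 323, 312 and 304 TPM, followed by HOXB7 at 141 ± 7.15, HOXB6 at 109.7 ± 5.56 and HOXB8 at 77.3 ± 6.51. HOXB13, the most posterior of the cluster, stood at 9.28 ± 0.297 TPM and HOXB1, the most anterior, had 0 reads. In HOXA the posterior HOXA11, HOXA13 and HOXA10 stood at 72.4 ± 2.55, 63.7 ± 2.997 and 30.2 ± 1.97 TPM. The highest of the other clusters were HOXD9 at 9.698 ± 1.03 and HOXC6 at 3.84 ± 0.417 TPM. Antisense transcripts of the HOX clusters may be mixed into these counts.

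**Figure D5:**
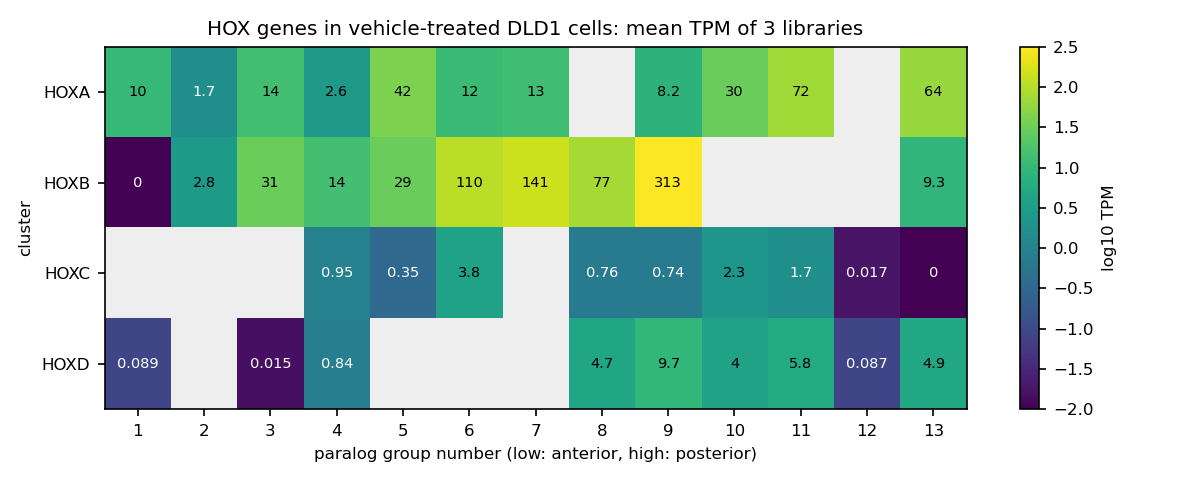
Mean TPM over the 3 DMSO libraries of the HOX genes, with clusters as rows and paralog group number from anterior to posterior as columns, coloured by log10 TPM; grey cells have no gene on the list. HOXB6 to HOXB9 form the brightest block, up to 313 TPM, and the HOXC row is dark.

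CDKN2A, the tumour suppressor that codes for INK4A and ARF (chr9:21967752-21995301, minus strand), had 0, 1 and 0 reads and was the only 1 of 20 colorectal suppressor and driver genes under 1 CPM. Its neighbour CDKN2B stood at 2.79 ± 0.0358 TPM, and CDKN1B, CDKN1A and CDKN2C at 48.5 ± 0.713, 39.1 ± 1.43 and 29.8 ± 0.83003. CTNNB1, which is β-catenin, stood at 512 ± 6.09 CPM, APC at 55.5 ± 3.69 and SMAD4 at 75.05 ± 3.96. A count says nothing of whether the RNA is mutated.

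All 10 genes of a list of DNA mismatch repair and related genes were expressed. MSH3 stood at 49.2 ± 2.91 CPM and PMS2 at 26.8 ± 0.826. MSH6, a mismatch recognition subunit that this line is known to lack as a working protein, stood at 17.7, 18.6 and 15.6 CPM and was the lowest of the list per length at 4.45 ± 0.408 TPM. With the longest transcript as the length it stood at 7.06 TPM. MGMT, a repair enzyme often silenced in colon tumours, stood at 28.8 ± 0.794 CPM.

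Of 21 antigen presentation genes 15 (71.4%) were expressed, beside 45.6% of all symbols and 59.9% of protein-coding symbols. The class I heavy chains HLA-C and HLA-B stood at 585 ± 21.8 and 44.6 ± 0.816 TPM, with shared sequence that makes the split uncertain, and B2M, their light chain, at 109 ± 1.52. TAP1, TAP2 and TAPBP, which load peptides, stood at 79.8 ± 1.76, 49.3 ± 1.55 and 204 ± 3.402 TPM. Class II was low, with CIITA, the class II activator, at 0.513 ± 0.158 CPM, HLA-DRA at 1.17, 2.103 and 2.72 and CD74 at 2.56 ± 0.528. CD274, which codes for PD-L1, stood at 2.75 ± 0.626 CPM.

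None of 20 cancer-testis antigens was expressed, and 18 had 0 reads, beside 31.1% of all symbols and 20.1% of protein-coding symbols. Among the 18 were MAGEA1, MAGEA3, MAGEA4, MAGEC1, CTAG1B, SSX2, GAGE1 and BRDT, while PRAME had 0, 1 and 1 reads. Of 12 pluripotency and germ cell genes 8 had 0 reads, NANOG, SOX2 and DDX4 included. TDRD1 and PIWIL1 stood just over the threshold at 1.3001 ± 0.0284 and 1.19 ± 0.275 CPM. POU5F1 had 7, 16 and 10 reads, which its processed pseudogenes make uncertain.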

How the data were processed

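The values come from the 3 libraries labelled DMSO. Per the submitters' processing notes, reads were trimmed with Trim Galore, aligned to hg38 with STAR 2.7.2b, handled with SAMtools 1.9 and counted with HTSeq. The labels' protocol text names NGS QC Toolkit 2.3.3, Bowtie 2.3.2 and STAR 2.5.2b in part of these places. The authors deposited unnormalized counts of reads for each gene symbol, and the strand setting is not given in the sources used here. HTSeq's summary lines were left out, of which reads without a gene were 7.19% to 8.48% and reads that were not unique 2.63% to 3.07%.

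CPM was computed over named genes, with Python 3.11.15, pandas 2.3.3 and numpy 2.4.6. TPM used merged exon lengths of GENCODE 44, and 24500 of 26485 symbols matched, 1339 by an older symbol through RefSeq, holding 99.6% of reads. Printed coordinates of genes are from GENCODE 44. All 984 members of 109 hand-written lists matched, of which 536 were expressed and 179 had 0 reads. RefSeq promoters matched 16199 symbols, 1 window a gene, the first listed, and printed stretches leave out annotated UTRs. No test was run, since no groups were compared, and the scripts were tested on simulated data.

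Members and lists were chosen with earlier results of these data known. The text names the markers, the AHR complex, repressors and classical targets. Some genes of the lists are counted but not reported here by name. In other lists it names up to 8 members highest per length and up to 8 at 0 reads or under 1 CPM, from paralog families any member, and the 20 symbols of highest CPM. It also names up to 8 symbols of at least 10 CPM whose variance between libraries most exceeded counting variance. Genes named beyond this for their known role were chosen after their values were seen. Alternatives were TMM and RLE scaling (edgeR 4.0.16), other thresholds, other lengths and leaving out each library.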

Additional observations from a re-analysis of the deposited data

How the results depend on the processing

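The number of expressed genes, 12067 at a mean of at least 1 CPM, was 12066 with TMM and with RLE scaling, 11853 where each library had to pass, 12853 at 0.5 CPM, 10199 at 5 CPM, 12384 at 1 TPM, and 12054 to 12079 without 1 library. Genes with 0 reads numbered 8235, 8719 to 8763 without 1 library and 10458 when up to 3 reads were allowed. The threshold set the shorter lists: at 5 CPM 18 of 109 list counts differed by over 1.5 times from those at 1 CPM, such as 2 in place of 5 mesenchymal genes, 4 in place of 9 colonocyte genes and 0 in place of 3 HOXC and 5 HOXD genes. At 0.5 CPM 6 lists differed, such as 8 in place of 5 Wnt ligands. The leading paralog changed in 6 families with the longest transcript as the length, HK1, PFKP, TUBB, LMNA and SMAD3 being among the new leaders, and in 12 with no length. With 3 libraries, leaving out 1 must move a mean by less than 1 SD, so the ranges without a library say little about stability. No paired analysis was possible because the values describe 1 group and no groups were compared.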

Other observations

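Several gene families of other tissues had few or no expressed members. Of 379 olfactory receptor symbols 360 had 0 reads and 1, OR2W3, was expressed. All 18 late cornified envelope genes of the skin had 0 reads. None of 94 keratin-associated protein genes, 40 β-defensin genes or 25 bitter taste receptors was expressed, and 81, 38 and 11 of them had 0 reads. The share with 0 reads was 31.1% of all symbols and 20.1% of protein-coding symbols. In contrast 78 of 81 ribosomal protein genes, 37 of 39 proteasome genes and 362 of 529 ZNF genes, mostly zinc finger factors, were expressed. The share was 45.6% of all symbols and 59.9% of protein-coding symbols. Of 1916 microRNA symbols 16 were expressed, in libraries of polyadenylated RNA that hold precursors and host transcripts rather than mature microRNAs.

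The spread between libraries exceeded counting noise for most genes and strongly for some. Over the 9151 genes of at least 10 CPM the variance between libraries was a median of 1.86 times the counting variance, over 3 times in 3152 and over 10 times in 610, while 8931 had a coefficient of variation of at most 10%. With counting noise alone and 3 libraries, the median of this ratio lies below its mean, so the 1.86 understates the excess. RNA18S5 stood furthest out, at 2592, 17 and 14 reads. RPS2 and RPLP0, ribosomal protein genes, were lowest in replicate 2, at 3112, 2791 and 2957 and 2388, 2187 and 2228 CPM. ACTB was lowest in replicate 3, at 4731, 4633 and 4354 CPM. CXCL5, a neutrophil-attracting chemokine and the symbol of rank 34, stood at 1576, 1648 and 1803 CPM, and HSPA8, a constitutive chaperone, at 4168, 4363 and 4484, both lowest in replicate 1. The other 2 of the 8 largest ratios belonged to HSP90AA1 at 4896, 5078 and 5264 CPM and KRT8 at 4778, 4455 and 4672. For a given spread relative to the mean, this ratio rises with read count, so it places genes of many reads first. The SDs of HSP90AA1 and KRT8 were 184 and 164 CPM on means of 5079 and 4635. The median coefficient of variation was 3.58%. TCAF1 and MTX1, chosen after their values were seen, also set replicate 1 apart, at 72.04, 109.9 and 109 and 36.2, 19.9 and 21.3 CPM. The part of RNA quality or library handling in these differences was not tested.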
